A study of Mus musculus with 6 samples.

Results

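The aminoacyl-tRNA synthetases are described here in mouse T cells, as 36 genes chosen by name: 20 whose enzymes work in the cytosol and 16 whose enzymes work in the mitochondria and whose symbols end in 2. All 36 were among the 52550 genes of the count table, and all 36 passed the filter for low counts that kept 14786 genes. Splenic CD3+ T cells of WT mice received anti-CD3/CD28 activators, which engage the T cell receptor (TCR), for 24 h. The activators were given by themselves in 3 samples (TCR alone), and in 3 others together with dimethylguanidino valeric acid (DMGV) at 100 ng/ml (TCR+DMGV). The labels name the added compound DMGV, and the study's own text names it LNY1, a fraction holding dimethylated arginines, at the same dose and time. Each sample is labelled as a biological replicate. The cells were a mixed CD3+ population that had not yet divided, and an RNA level was measured, not an enzyme amount or a charged tRNA.

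An aminoacyl-tRNA synthetase joins an amino acid to the tRNAs that carry it to the ribosome. The cytosolic enzymes supply the ribosomes that translate nuclear mRNAs, and the mitochondrial enzymes, encoded in the nucleus and imported, supply the mitochondrial ribosomes that make subunits of the respiratory chain. T cells raise protein synthesis and mitochondrial translation when they are activated. Kars and Gars, the lysyl and glycyl enzymes, encode both the cytosolic and the mitochondrial enzyme and are counted here with the cytosolic genes. When amino acids are short, uncharged tRNA activates the kinase GCN2 (Eif2ak4), and the transcription factor ATF4 then raises a set of genes that includes several cytosolic synthetases, through sites of the form TGATGNAAN (CARE, where N is any base).

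The ATF4 form was found in promoters of cytosolic but of no mitochondrial synthetase. It was searched on both strands of RefSeq promoter windows (GRCm38.p6, 250 bases before to 50 bases after the gene start), which were matched for 13 cytosolic and 14 mitochondrial genes. The form was present in 5 of these 13 cytosolic genes (38.5%) and in 0 of the 14 mitochondrial genes, of which Aars2 had 2 windows. Counted over windows and not genes, 3.95% of all 32851 held it. For each of the 5 genes 1 match is shown, because all matches lie in cytosolic genes, each as 29 bases read 5′ to 3′ on the strand of the motif, with the motif in capitals.
Aars, chr8:111033840-111033868, minus strand: cagagcgctcTGATGAAAAgtgacccgct
Gars, chr6:55037960-55037988, minus strand: gcccggtgcaTGATGAAATagcgcagcca
Iars, chr13:49682126-49682154, minus strand: cgtctggaggTGATGCAATactgacagtg
Tars, chr15:11399656-11399684, plus strand: gctaaccagcTGATGCAACgggactcctg
Yars, chr4:129189896-129189924, plus strand: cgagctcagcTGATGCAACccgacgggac
The Yars match lies on the strand of its gene, and the other 4 shown lie on the opposite strand. A match is a stretch of letters and not a measured binding site. No window was matched for Cars, Hars, Lars, Nars, Rars, Vars, Wars, Hars2 and Pars2. Beside it, the ETS form CCGGAAG was present in 5 of 13 cytosolic and 4 of 14 mitochondrial genes, against 8.86% of all windows. The E-box CACGTG was present in 4 of 13 and 1 of 14, against 7.15%. None of the 3 forms contains another, and no test was run on these shares.

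The cytosolic synthetases were expressed far more strongly than the mitochondrial ones in every sample. Their summed gene FPKM, a fragment count divided by gene length and by the sample's total, was 13.3 ± 0.839 times the mitochondrial sum in TCR alone and 13.4 ± 0.706 times in TCR+DMGV (mean ± SD, n = 3). The ratio was 12.6, 14.2 and 13.1 in TCR alone replicates 1, 2 and 3, and 12.6, 13.5 and 14.0 in the TCR+DMGV replicates. The groups overlapped in this ratio. The cytosolic sum held all of Kars and Gars, which also encode mitochondrial enzymes. Moving their mitochondrial forms to the other sum would lower the ratio, by an amount that was not computed. In bulk samples such as these, fewer cells of a type and less RNA per cell cannot be told apart. The cytosolic genes held 0.616% to 0.653% of all counts of a sample and the mitochondrial genes 0.0579% to 0.0648%.

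**Figure D1:**
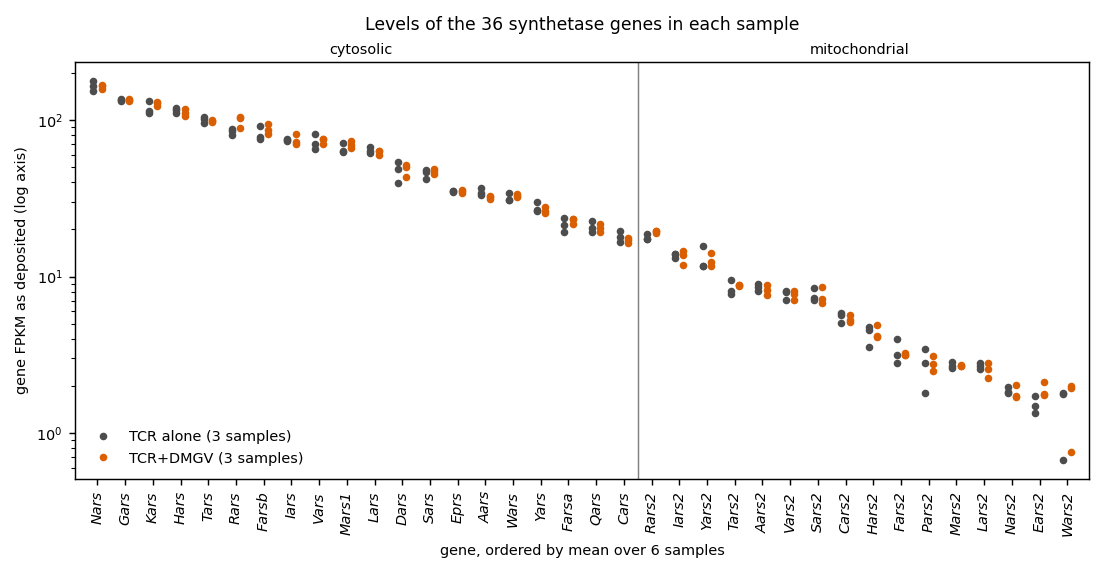
Each point is the deposited gene FPKM of 1 sample on a log axis, for 20 cytosolic genes on the left and 16 mitochondrial genes on the right, ordered by the mean over 6 samples. The points of TCR alone (grey) and TCR+DMGV (orange) lie together for nearly every gene, Nars and Gars stand at the top, and in Wars2 a sample of each group lies below the rest.

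Among the cytosolic enzymes, Nars, which charges asparagine tRNA, had the highest level, with FPKM of 165.0, 177.3 and 154.1 in TCR alone and 158.9, 165.0 and 169.1 in TCR+DMGV. Gars followed with a mean FPKM of 134.7 and Kars with 123.5. Cars, the cysteinyl enzyme, had the lowest cytosolic level, with FPKM of 16.7, 19.5 and 17.9 in TCR alone and 16.5, 17.7 and 17.2 in TCR+DMGV. The median of the 20 cytosolic mean FPKM was 65.6, and that of the 16 mitochondrial genes was 4.88. By gene FPKM the classes met at 1 point. Rars2, the mitochondrial arginyl enzyme, was the highest of its class. It had FPKM of 17.3, 18.7 and 17.3 in TCR alone and 19.5, 19.6 and 19.1 in TCR+DMGV, within or just above the range of Cars. Wars2, the mitochondrial tryptophanyl enzyme, was the lowest of all, with FPKM of 1.79, 0.674 and 1.77 in TCR alone and 2.00, 0.754 and 1.93 in TCR+DMGV. The level of Wars2 in replicate 2 of each group was under that of every other sample.

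The order within the classes, and the point where they met, depended on the length behind each FPKM. Eprs, the enzyme that joins both glutamate and proline to their tRNAs, had the highest CPM of the synthetases (counts scaled to the library and not to length, 710.7 in TCR alone), yet a gene FPKM of only 35.1. Its annotated exons cover 18102 bases, and the FPKM of its transcripts summed to 129.9. By transcript FPKM summed over each gene, an alternative chosen after seeing the data, Kars led with 269.0, Wars took the lowest cytosolic place with 43.4, and Tars2 (35.6) replaced Rars2 (28.3) as the highest mitochondrial gene. Wars2 was again the lowest with 2.64, and the classes did not meet in these means. The cytosolic sum was then 9.44 ± 0.511 times the mitochondrial sum in TCR alone and 9.64 ± 0.611 times in TCR+DMGV. This sum too held all of Gars and Kars. The mitochondrial form held 32.31% (TCR+DMGV replicate 1) to 45.55% (TCR+DMGV replicate 2) of the Kars transcript counts.

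Between the groups, no synthetase passed the test, and most differed by a few percent. Of 36 genes, 22 had a higher and 14 a lower estimate in TCR+DMGV, and of all genes tested 50.6% were higher. With scaling to library size alone the split of the 36 was 17 higher and 19 lower. The median log2 fold change was 0.017 over the 20 cytosolic genes, with a range from -0.10 to 0.25, and 0.0038 over the 16 mitochondrial genes, with a range from -0.073 to 0.32. Over all genes tested it was 0.0024. The mitochondrial median turned negative under library size alone (-0.010) and under the size factors of DESeq2 in edgeR (-0.0024), and the cytosolic median was positive under both (0.0034 and 0.011).

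The test was edgeR's quasi-likelihood test, two-sided, with p-values adjusted over all 14786 genes and a threshold of 0.05. It called 0 of 36 synthetases, at an adjusted p of 0.9995 for each, and 0.0135% of all genes, namely Slc39a9 (lower) and Ahcyl2 (higher), which were named after their values were seen. DESeq2 also called 0 of 36, beside 0.0854% of the genes to which it gave an adjusted p. At an unadjusted p under 0.05 there was 1 of 36 synthetases higher and 0 lower, where 1.63% of all genes were higher and 1.56% lower. The 95% interval of the log2 fold change lay within 0.5 on either side of 0 for 33 of 36 genes, all 20 cytosolic ones included. It reached beyond that for Ears2, Pars2 and Wars2, so that a change of that size was not resolved in these 3 genes.

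**Figure D2:**
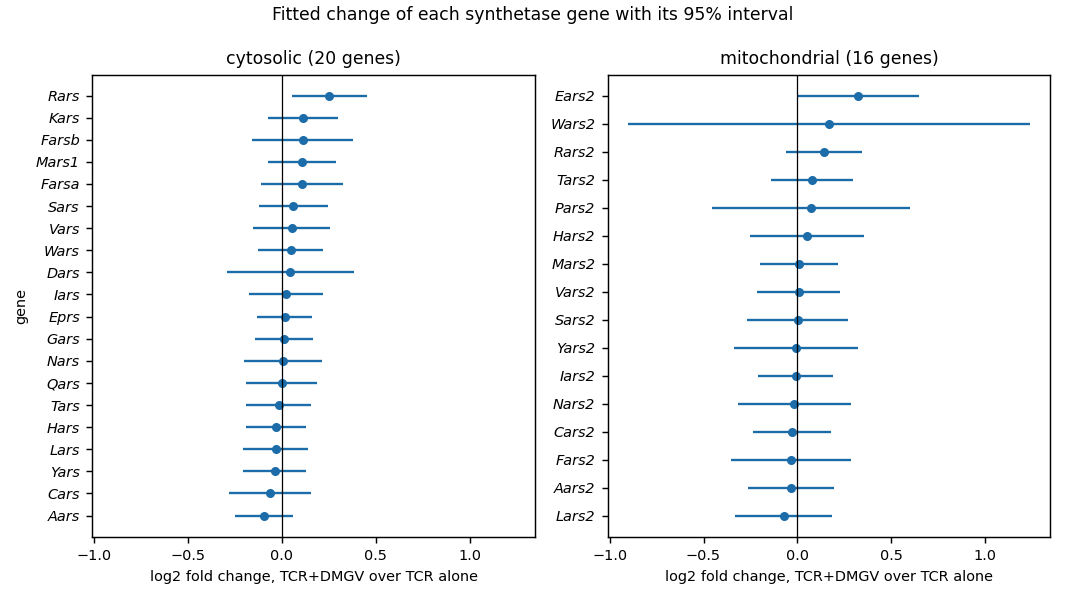
Points are the fitted log2 fold changes of TCR+DMGV over TCR alone and lines their 95% intervals, for the 20 cytosolic genes (left) and the 16 mitochondrial genes (right). The interval of Rars lies above 0 before adjustment, that of Wars2 runs from -0.90 to 1.24, and the others hold 0.

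In 4 of 36 synthetases the CPM ranges of the groups were separate, 3 of them higher and 1 lower in TCR+DMGV, where 4.92% of all genes did so in the higher and 3.94% in the lower direction. The exact permutation test over 3 against 3 samples cannot go below 0.1, which is the value it gave for these 4 genes.

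Rars, the arginyl enzyme of the cytosol and a member of the multisynthetase complex, had the smallest unadjusted p of the 36. It lies on chromosome 11, 35808381 to 35834506 (GRCm38, minus strand). Its CPM was 288.7, 313.3 and 312.6 in TCR alone replicates 1, 2 and 3, and 367.5, 330.3 and 390.7 in the TCR+DMGV replicates. Every TCR+DMGV sample was above every TCR alone sample, with TCR+DMGV replicate 2 the nearest. The group means were 304.9 ± 14.0 and 362.8 ± 30.5 (SD), a log2 fold change of 0.25 with a standard error of 0.085 (edgeR, unadjusted p = 0.0205, adjusted p = 0.9995). Over the 17 alternatives the fold change of Rars stayed between 0.20 and 0.31 and the unadjusted p between 0.012 and 0.138, above 0.05 with the GC correction and without TCR alone replicate 1, TCR+DMGV replicate 1 or TCR+DMGV replicate 3. From 97.4% to 99.5% of its transcript counts fell on its protein-coding transcript in each sample.

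Aars, which charges alanine tRNA and holds an ATF4 match, was the 1 synthetase with lower, non-overlapping values. It lies on chromosome 8, 111033144 to 111057664 (plus strand). Its CPM was 343.9, 361.7 and 373.7 in TCR alone and 334.2, 339.6 and 334.7 in TCR+DMGV. The TCR+DMGV values were close together, just under the lowest TCR alone value. The log2 fold change was -0.098 with a standard error of 0.066 (edgeR, unadjusted p = 0.179). Aars shares 1326 bases with Exosc6 on the same strand, a gene with at most 4019 counts in a sample against at least 13062 for Aars. Exosc6 varied widely between samples, with a log2 fold change of -0.13 and a standard error of 1.46. Whether its reads affected the Aars values was not tested.

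Of the other cytosolic genes with the smallest p, Mars1, the methionyl enzyme, had CPM of 241.1, 245.4 and 268.2 in TCR alone and 263.7, 287.4 and 262.5 in TCR+DMGV. Kars had 552.9, 586.0 and 649.2 in TCR alone and 638.8, 630.0 and 663.4 in TCR+DMGV. Farsa, the alpha subunit of the phenylalanyl enzyme, had 97.2, 110.6 and 118.4 in TCR alone and 116.8, 112.2 and 122.3 in TCR+DMGV. In each of these 3 genes the groups overlapped, and the log2 fold changes were 0.11, 0.11 and 0.11 with unadjusted p of 0.201, 0.201 and 0.288 (edgeR). Farsb, the partner subunit of Farsa, had a log2 fold change of 0.11 with a standard error of 0.115. The remaining 14 cytosolic genes are Cars, Dars, Eprs, Gars, Hars, Iars, Lars, Nars, Qars, Sars, Tars, Vars, Wars and Yars, and their log2 fold changes ran from -0.061 in Cars to 0.060 in Sars.

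**Figure D3:**
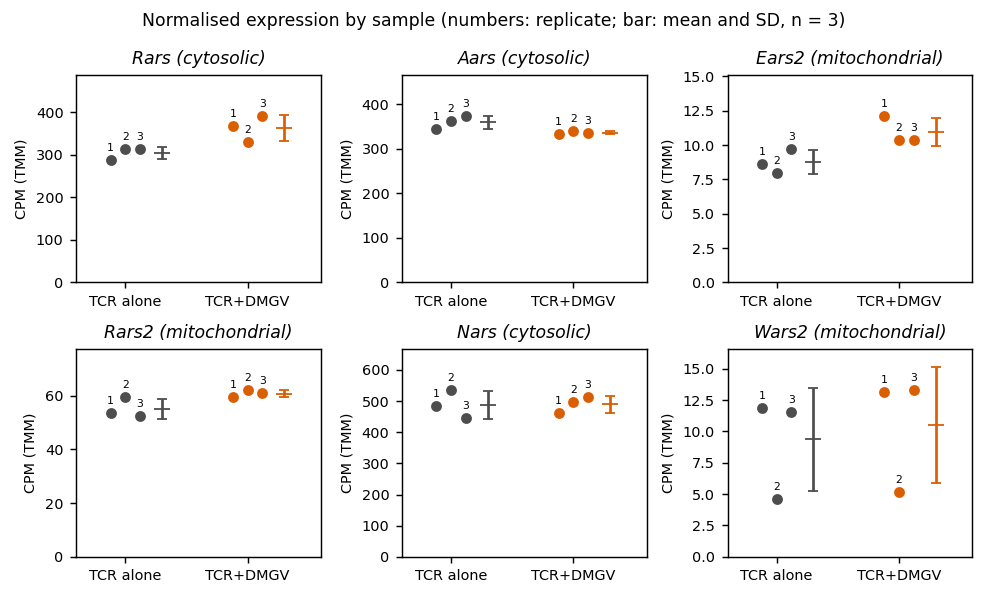
CPM (TMM-normalised) of 6 synthetase genes, with each sample as a point carrying its replicate number and the group mean and SD (n = 3) beside it, on axes that start at 0. In Rars, Ears2 and Rars2 all TCR+DMGV points lie above those of TCR alone, in Aars they lie below, in Nars the groups overlap, and in Wars2 replicate 2 of each group is low.

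Ears2, the mitochondrial glutamyl enzyme, had the largest estimate of the 36. It lies on chromosome 7, 122037213 to 122067263 (minus strand). Its CPM was 8.64, 7.94 and 9.71 in TCR alone and 12.1, 10.4 and 10.3 in TCR+DMGV. All TCR+DMGV samples were higher, with the highest TCR alone sample close to the lowest of them. The log2 fold change was 0.32 with a standard error of 0.139 (edgeR, unadjusted p = 0.0528). A retained-intron transcript of Ears2 was at 0 counts in replicate 2 of each group and between 136 and 240 counts elsewhere. The protein-coding transcript of Ears2 held from 43.4% to 91.4% of the gene's fragments, and the groups overlapped in this share. Unscaled, it received 153, 296 and 204 fragments under the activators by themselves, against 274, 406 and 178 with DMGV. These ranges overlap. Whether the higher gene values hold for the coding transcript was not tested. Ears2 shares 89 bases at its start with Ubfd1 on the opposite strand, which had up to 3653 counts against at least 324 for Ears2, and whether the counting used strand is not stated in the sources used here.

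Rars2, the mitochondrial arginyl enzyme, had CPM of 53.4, 59.5 and 52.6 in TCR alone and 59.6, 62.0 and 60.8 in TCR+DMGV. The lowest TCR+DMGV value exceeded the highest TCR alone value by less than 0.1 CPM. The log2 fold change was 0.14 with a standard error of 0.086 (edgeR, unadjusted p = 0.147). The arginyl enzymes of both compartments were among the 3 synthetases with higher, non-overlapping values, where 4.92% of all genes had such values. This was noticed after the values were seen, and none of the 3 passed the test.

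Tars2, the mitochondrial threonyl enzyme, had CPM of 59.7, 64.8 and 72.1 in TCR alone and 68.2, 69.6 and 69.3 in TCR+DMGV. Lars2, the leucyl enzyme, had 31.7, 35.9 and 32.6 in TCR alone and 34.4, 28.3 and 32.5 in TCR+DMGV. Hars2, the histidyl enzyme, had 22.7, 17.4 and 21.4 in TCR alone and 23.1, 20.4 and 20.3 in TCR+DMGV. The groups overlapped in these 3 genes, with unadjusted p of 0.444, 0.524 and 0.695 (edgeR). Hars2 shares 198 bases at its start with Hars on the opposite strand, which had up to 11480 counts against at least 712 for Hars2. Fars2 likewise shares 115 bases with Lyrm4, which had up to 1040 counts against at least 683 for Fars2, and without strand the reads of such bases cannot be told apart.

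Wars2 had CPM of 11.9, 4.63 and 11.6 in TCR alone and 13.1, 5.18 and 13.3 in TCR+DMGV. Replicate 2 of each group stood far below every other sample, and the gene had the largest standard error of the 36, 0.455 around a log2 fold change of 0.17. Pars2, the prolyl enzyme, had the second largest, 0.225. The other 9 mitochondrial genes, Aars2, Cars2, Fars2, Iars2, Mars2, Nars2, Sars2, Vars2 and Yars2, had log2 fold changes from -0.036 in Aars2 to 0.0086 in Mars2.

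**Figure D4:**
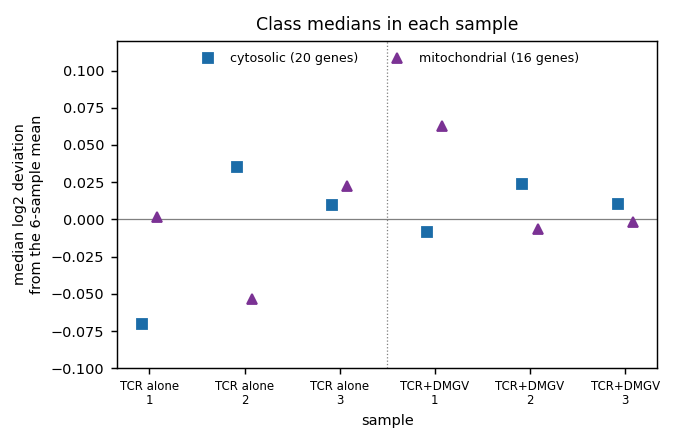
For each of the 6 samples, the median over 20 cytosolic genes (squares) and over 16 mitochondrial genes (triangles) of the log2 deviation from the gene's mean over 6 samples. The values lie between -0.070 and 0.063, and the samples of the groups, split by the dotted line, overlap in both classes.

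The classes as wholes did not separate the groups. The median log2 deviation of the cytosolic genes from their 6-sample mean was -0.070, 0.035 and 0.0094 in TCR alone and -0.0085, 0.024 and 0.011 in TCR+DMGV. That of the mitochondrial genes was 0.0017, -0.053 and 0.022 in TCR alone and 0.063, -0.0067 and -0.0017 in TCR+DMGV. The mitochondrial less the cytosolic median was 0.072, -0.089 and 0.013 in TCR alone and 0.071, -0.031 and -0.012 in TCR+DMGV. The values of the TCR+DMGV samples lay within the range of TCR alone for the cytosolic median and for the difference, and TCR+DMGV replicate 1 lay above it for the mitochondrial median. The 8 enzymes of the multisynthetase complex (Eprs, Iars, Lars, Mars1, Qars, Rars, Kars and Dars) had a median log2 fold change of 0.033, with 6 higher and 2 lower (7 higher after the length correction), and the 12 cytosolic enzymes outside it had 0.0086, with 7 higher and 5 lower. The enzymes also fall into 2 families by the fold of their catalytic domain. The 19 of class I had a median of 0.0086 and the 17 of class II 0.012. Eprs, which joins both glutamate and proline, was counted in class I alone.

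**Figure D5:**
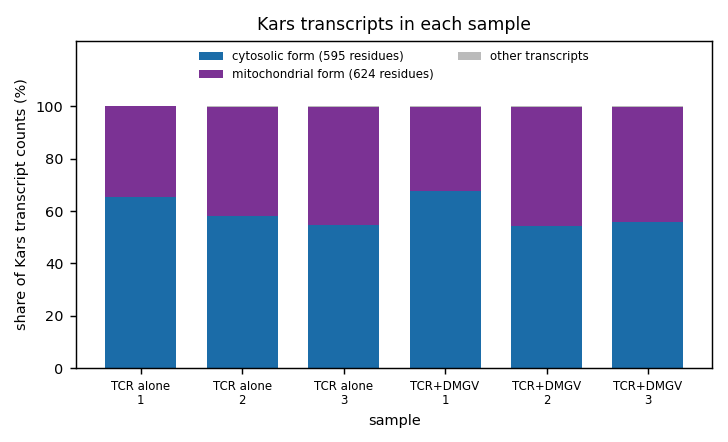
Stacked bars give the share of Kars transcript counts on the transcript of the cytosolic form (blue), on the transcripts of the mitochondrial form (purple) and on others (grey, at most 0.223%). The cytosolic form holds 54.3% to 67.5% in the 6 samples, and the groups overlap.

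Kars encodes the enzymes of both compartments through alternative splicing, with a form of 595 residues for the cytosol and one of 624 residues for the mitochondria. The cytosolic form held 65.5%, 58.1% and 54.6% of the Kars transcript counts in the TCR alone samples and 67.5%, 54.3% and 56.0% in TCR+DMGV. The mitochondrial form held 34.4%, 41.8% and 45.2% in TCR alone and 32.3%, 45.5% and 43.9% in TCR+DMGV. Replicate 1 of each group had the highest cytosolic share, and the groups overlapped. These shares are assignments of fragments to similar transcripts by the authors' tool, and their error is not given. Of Gars, 99.9% of the counts fell on a single coding transcript in every sample (99.85% to 99.92%), so the forms that arise from different start codons on it cannot be told apart. For other members the share of protein-coding transcripts varied widely between samples, from 1.91% to 34.5% for Qars, from 37.95% to 99.5% for Mars1 and from 15.6% to 44.5% for Yars2, and in these 3 genes the groups overlapped. In Aars the coding share was 98.65%, 98.2% and 98.07% in TCR alone and 97.49%, 97.94% and 97.44% in TCR+DMGV, without overlap. In Kars it was 99.89% or more in every sample, and the groups were barely separate. The lowest TCR alone value of Kars was 99.95% and the highest TCR+DMGV value 99.94%. How many of all genes separate in this share was not counted. A noncoding transcript of Cars2, Cars2-202, singled out after its values were seen, held 0%, 0.0585% and 0% of the transcript counts of that gene in the TCR alone samples and 6.22%, 18.8% and 12.2% in the TCR+DMGV samples, while the CPM of the whole gene overlapped. How many transcripts separate in this way was not counted, and the error of their assignment is not given. No test was run on single transcripts.

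Around the synthetases, no gene of the related lists was called. The 3 scaffold proteins of the multisynthetase complex had log2 fold changes of 0.10 (Aimp1), 0.20 (Aimp2) and 0.13 (Eef1e1). Aimp2 had CPM of 93.9, 86.8 and 106.0 in TCR alone and 109.9, 103.7 and 116.3 in TCR+DMGV, which overlapped, with an unadjusted p of 0.0752 (edgeR). Eef1e1 had 121.6, 127.9 and 122.7 in TCR alone and 134.4, 128.8 and 144.6 in TCR+DMGV, without overlap. Gatc, a subunit of the amidotransferase that makes mitochondrial glutaminyl-tRNA, had CPM of 32.0, 31.7 and 31.7 in TCR alone and 34.4, 34.8 and 35.1 in TCR+DMGV, a log2 fold change of 0.13 with a standard error of 0.080. Tufm, the mitochondrial elongation factor that brings charged tRNA to the ribosome, had 123.6, 113.0 and 126.9 in TCR alone and 132.7, 133.6 and 136.1 in TCR+DMGV, with an unadjusted p of 0.0892 (edgeR), and of the 9 mitochondrial translation factors 5 were higher and 4 lower (7 higher under the GC correction).

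Of the 6 cytosolic elongation factors 4 were higher and 2 lower, and Eif5a, with the smallest unadjusted p (0.331, edgeR), had CPM of 1723, 1835 and 1996 in TCR alone and 1931, 1902 and 2036 in TCR+DMGV. Of the 5 editing and synthetase-like genes 3 were higher and 2 lower, or 2 higher with library size alone. Dtd2, the gene of smallest p among them, had CPM of 11.6, 14.6 and 13.6 in TCR alone and 12.7, 17.6 and 14.0 in TCR+DMGV. Both genes overlapped between the groups. The 23 tRNA maturation genes split into 12 higher and 11 lower, with 9 to 11 higher under the other scalings, and Pop5, a subunit of RNase P, had CPM of 58.1, 53.1 and 67.9 in TCR alone and 53.0, 48.1 and 50.6 in TCR+DMGV. Of the 6 genes of selenocysteine tRNA 1 was higher and 5 lower, and Sepsecs, which makes selenocysteinyl-tRNA, had 23.4, 26.1 and 13.8 in TCR alone and 11.9, 12.8 and 19.3 in TCR+DMGV, with overlap.

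Genes that read uncharged tRNA, and the ATF4 targets outside the synthetases, were set beside the members. Atf4 itself had CPM of 304.2, 281.0 and 329.2 in TCR alone and 343.7, 305.4 and 318.4 in TCR+DMGV, and Eif2ak4 54.9, 57.6 and 52.3 in TCR alone and 49.9, 56.2 and 49.7 in TCR+DMGV. The groups overlapped in both. Of 27 listed ATF4 targets 25 were tested, and 6 had a higher and 19 a lower estimate (5 or 6 higher under the other scalings), with a median log2 fold change of -0.17 beside 0.0024 over all genes tested. None was called. At an unadjusted p under 0.05 there were 3 lower, where 1.56% of all genes were, and without overlap 4 lower, where 3.94% of all genes were. The smallest p was that of Cebpb, a transcription factor, which had CPM of 29.5, 25.0 and 25.7 in TCR alone and 19.2, 18.5 and 18.1 in TCR+DMGV (log2 fold change -0.52, standard error 0.102, edgeR unadjusted p = 0.00128, adjusted p = 0.9995). The 5 cytosolic synthetases with the ATF4 form in their window had log2 fold changes from -0.098 to 0.020 with a median of -0.016, and the 8 with a window that lacked it from -0.0019 to 0.11 with a median of 0.084. The cytosolic genes without a matched window are in neither set. The standard errors of single cytosolic genes ran from 0.062 to 0.143. This split was not tested, and whether ATF4 had a part in these values was not tested.

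Across the whole series, total counts per sample ran from 37758725 to 43718867, and a synthetase had between 189 and 31762 counts in a sample. TCR alone replicate 3 and TCR+DMGV replicate 1 stood apart from the other 4 on the first principal component, which held 32.2% of the variance. Without these 2 samples edgeR called 0 of 36 synthetases and 12 of all 14888 genes tested. Rars was the single member at an unadjusted p under 0.05, where 972 of the 14888 genes were. The labelled cell type carried its markers, with the 11 T cell markers summing to 3354 to 3535 CPM in TCR alone and 3529 to 3730 in TCR+DMGV. Markers of B cells, macrophages and dendritic cells each summed to under 12 CPM in every sample. The 6 neutrophil markers, Cd14, Siglech and Clec9a were at 0. The 4 NK cell markers summed to 1.11 to 1.26 CPM in TCR alone and 1.67 to 2.63 in TCR+DMGV. The part of these lists in the synthetase values was not tested.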

How the data were processed

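Reads were cleaned with SOAPnuke, aligned with HISAT2 2.0.4 and quantified with StringTie by the authors, whose deposited counts are unnormalized whole numbers for genes and for transcripts. The deposited FPKM values were scaled by the authors to feature length and to the fragments of each sample, which lowers genes with much annotated exon sequence. Per the labels' processing notes the build is mm9, while 99.7% of the gene identifiers match GENCODE M21 (GRCm38), from which symbols and coordinates were taken. The members and lists were chosen with earlier results of these data known.

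Gene counts of 3 against 3 samples were tested with edgeR 4.0.16 (quasi-likelihood, TMM, default filter for low counts) in R 4.3.3, two-sided, with Benjamini-Hochberg adjustment over all genes tested. CPM used TMM-scaled library sizes. An unadjusted p-value and a 95% interval describe single genes. Every member was named, and values per sample were given for the 5 smallest p, the highest and lowest FPKM and any non-overlapping member of each class, and for the smallest-p gene of each related list. The exact permutation test used log2 CPM. DESeq2 1.42.0, limma 3.58.1 on log2(FPKM + 1) and log2(FPKM + 0.1), other scalings, filters, length and GC corrections, a replicate block and left-out samples were alternatives. Transcript FPKM summed per gene was chosen after seeing the data. The fit was tested on simulated data. Python 3.11.15, pandas 2.3.3 and matplotlib 3.10.9 served for tables and figures. Some items of the lists are not reported here.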

Additional observations from a re-analysis of the deposited data

How the results depend on the processing

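In each of the 17 alternatives run, 0 of 36 synthetases were called. The genes called over the whole table numbered 2 in the reported fit and 14 with DESeq2, 1 with all genes that had a count, 1 with library size alone, and 0 with the length correction, with log2(FPKM + 1), with log2(FPKM + 0.1) and with the replicate block, where 340 genes had an unadjusted p under 0.05. With samples left out the number ran from 0 to 12. The synthetases at an unadjusted p under 0.05 then ran from 0 to 3. Without TCR alone replicate 3 they were Ears2, Kars and Rars, where 1109 of all 15191 genes tested had such a p. In the reported fit 471 of 14786 genes did. There were none without TCR alone replicate 1, TCR+DMGV replicate 1 or TCR+DMGV replicate 3. Under the GC correction the single such gene was Ears2 in place of Rars. The median log2 fold change of the mitochondrial genes ran from -0.026 to 0.045 with samples left out, the highest without TCR alone replicate 3, and that of the cytosolic genes from -0.0043 to 0.047. The estimates of 11 of 36 genes, Rars, Aars, Ears2 and Rars2 among them, kept their direction in all 17 alternatives, and 25 changed it in at least 1. The cause of these shifts was not tested.

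Deviations from the group means over 14786 genes showed no clear pairing by replicate number. Same-numbered samples correlated at -0.154, 0.121 and -0.148, and TCR alone replicate 3 with TCR+DMGV replicate 1 at 0.310. Wars2 was low in replicate 2 of both groups, so whether the numbers mark pairs was not settled. The replicate block gave medians of 0.016 and 0.0044 for the cytosolic and mitochondrial genes and 1 synthetase at an unadjusted p under 0.05.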
